A study of Bos taurus with 54 samples.

Results

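The osmotic stress and osmolyte transport genes described here are 7 genes named by symbol, SLC5A3, SLC6A6, SLC38A2, NFAT5, AKR1B1, AQP9 and WNK1, out of the 32637 genes counted in every library. They were chosen by symbol with their heat stress against control values in these same libraries already known, so those values are given as a description and without a test. Whole blood came from 15 Holstein male calves kept in climate-controlled rooms, and the labels name no genetic or drug treatment for either group. The thermoneutral control blood was drawn in the morning before heat exposure (6AM in the labels), and the heat stress blood was drawn from the same calves in the evening, directly after 12 h of exposure (6PM), so that heat and time of day cannot be told apart. Library kits that read the 3′ end of messenger RNA were used, SMART-Seq v4 3′ DE from Takara and QuantSeq from Lexogen, and each gave 13 control and 13 heat libraries once animal 20, whose label and the study's sample list disagree on its time, was set aside. In each kit 12 calves had both times. The age of the calves was not given in the sources used here.

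Cells that lose water to a saltier or more concentrated surrounding shrink, and they restore their volume by taking up ions and then small organic solutes called osmolytes. Myo-inositol, taurine, neutral amino acids and sorbitol are the best known of these solutes, and the transporters or enzymes that supply them are SLC5A3 for myo-inositol, SLC6A6 for taurine, SLC38A2 for neutral amino acids and AKR1B1 for sorbitol. NFAT5 is the transcription factor that switches on such genes under hypertonic conditions, WNK1 is a kinase that senses chloride and cell volume, and AQP9 is a channel for water, glycerol and urea that is abundant in neutrophils. SLC38A2 is also known to respond to amino acid shortage, and NFAT5 also acts in immune cells without osmotic stress.

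In the ARS-UCD2.0 assembly, SLC5A3 lies on chromosome 1 from 1421587 to 1454689, inside the span of MRPS6, so reads on the shared part could not be given to either gene with certainty. SLC6A6 lies on chromosome 22 from 57784837 to 57868851 and overlaps the lncRNA LOC101907298. No other annotated gene overlapped SLC38A2 (chromosome 5, 33850777 to 33865223), NFAT5 (chromosome 18, 36660661 to 36780351), AKR1B1 (chromosome 4, 98115288 to 98132092), AQP9 (chromosome 10, 52087959 to 52136099) or WNK1 (chromosome 5, 107577787 to 107708129). The median share of counts on the gene's own strand was 90.1% for SLC5A3 in Takara, the lowest of the 7 genes in either kit, and at least 97.4% for each of the other genes.

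Counts on genes ranged from 5140595 to 20699030 per Takara library and from 4516761 to 58521751 per Lexogen library, and the deepest library was the Lexogen heat library of animal 15. The Lexogen heat library of animal 18 had the fewest genes with a count in its kit and stood farthest from the other libraries. The sample numbers formed 2 separate runs of different calves, run 1 with animals 12, 15, 18, 19, 23, 29, 40 and 41 and run 2 with animals 3, 7, 14, 16, 20, 32 and 36, and what else differed between the runs is not given. Levels are given as CPM, the counts of a gene scaled to the same total of counts on genes in every library, and are not compared between genes. Fold changes are on the log2 scale after TMM scaling, which sets library sizes from the bulk of the genes, with the standard error (SE) of the edgeR fit over 13 and 13 libraries. The median log2 fold change of all genes tested was -0.05 in Takara and -0.08 in Lexogen. Scaling by the plain total shifted the Takara median by -0.22 and turned the genes past the threshold, an adjusted p of 0.05, from 2325 higher and 1321 lower into 1303 higher and 2185 lower. None of the fold changes of the 7 genes changed sign between these scalings.

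The 4 genes that stood higher after heat in both kits by a log2 fold change of at least 0.86 were the 3 solute transporters, SLC5A3, SLC6A6 and SLC38A2, and the channel gene AQP9. NFAT5 and WNK1 were higher by less, and AKR1B1 was the 1 gene with a negative value in Takara. Of the 7 genes, 5 were past the threshold as higher in Takara, where 18.4% of all genes tested were, and 0 as lower, where 10.5% were. In Lexogen 5 of the 6 genes that passed the filter on low counts were past it as higher, against 5.09% of all genes tested, and 0 as lower, against 0.459%. The choice of the genes used these same values, so nothing is read from these counts. Groups overlapped for every gene in both kits.

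The count past the threshold depended on the fit, more in Lexogen than in Takara. With the animal as a block, 4 genes were past it as higher in Takara, without NFAT5, where 14.9% of all genes were higher and 10.2% lower. In Lexogen the block left 0 genes, where 0.45% of all genes were higher and 0.144% lower, and 4 had an unadjusted p under 0.05. DESeq2 on all expressed genes placed 5 genes past it in each kit, where 11.4% of all Takara genes and 3.78% of all Lexogen genes were higher. With plain totals 4 genes remained in Takara, where 10.3% of all genes were higher and 17.3% lower, and SLC38A2 alone in Lexogen, where 3.93% were higher and 0.468% lower. Without the heat library of animal 18, an alternative added after the data were seen, 4 genes remained in Takara against 15.5% of all genes, and 2, SLC38A2 and WNK1, in Lexogen against 4.16%. The same 2 remained in Lexogen without the deepest library, the heat library of animal 15, against 3.59%, and 4 without the control library of animal 14 against 5.91%. In calves of run 1 alone the count was 5 in Takara against 14.7% and 2 in Lexogen against 3.29%, and in those of run 2 alone it was 2 in Takara, SLC38A2 and AQP9, against 4.8%, and 0 in Lexogen against 0%, with 2 at an unadjusted p under 0.05.

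**Figure D1:**
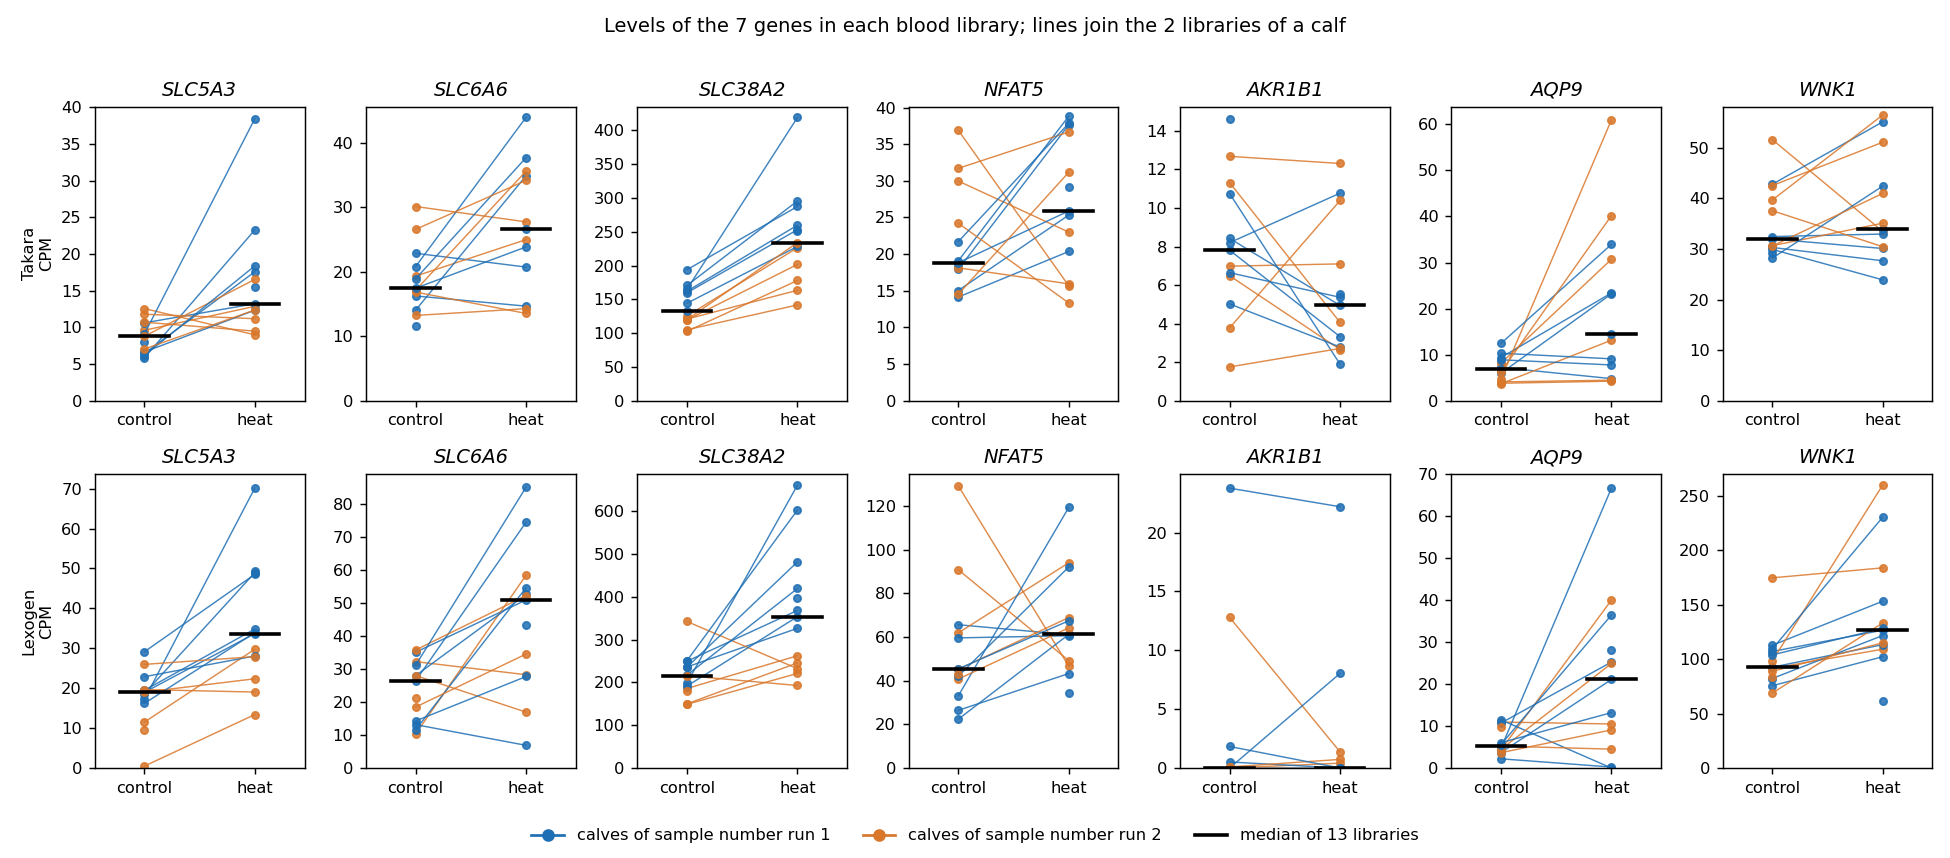
CPM of each of the 7 genes in 13 control and 13 heat libraries of Takara (top) and Lexogen (bottom), with the 2 libraries of a calf joined by a line, calves coloured by run of sample numbers and the median as a black bar. The SLC38A2 lines of all 12 Takara calves go up, those of AQP9 fan out from a control range of 3.67 to 12.4 CPM, and AKR1B1 is at 0 in 15 of 26 Lexogen libraries.

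SLC38A2, which carries small neutral amino acids such as alanine and glutamine into cells with sodium, had the least scatter between calves of the 7 genes in Takara. Its CPM was 102.7 at the lowest, 133 at the median and 194 at the highest in control blood, and 142, 234 and 419 after heat. The groups overlapped, but 10 of 13 heat libraries lay above every control library, and the level was higher after heat in 12 of 12 calves. The log2 fold change was 1.11 ± 0.18 (SE), and the difference within a calf ranged from 0.38 to 2.03 on the log2 scale. In Lexogen the control values were 149, 216 and 343 CPM and the heat values 193, 354 and 661 CPM, with a log2 fold change of 0.86 ± 0.20 (SE) and a higher level in 10 of 12 calves. Animals 14 and 36 had the 2 lower heat values, with differences of -0.67 and -0.17, and animal 14 had the highest control value of the Lexogen libraries.

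SLC5A3 encodes the sodium-coupled myo-inositol transporter SMIT1. In Takara its control libraries held 5.84 CPM at the lowest, 8.78 at the median and 12.6 at the highest, and its heat libraries 8.98, 13.2 and 38.5 CPM. Of 13 heat libraries, 8 lay above every control library. With TMM scaling 10 of 12 calves were higher after heat, and with plain totals 9, since animal 36 went from 10.7 to 9.48 CPM. Animal 18 went from 9.07 to 38.5 CPM, the highest value of the kit, while animals 16 and 32 had differences of -0.12 each. The log2 fold change was 1.18 ± 0.21 (SE), and it was 0.91 without the heat library of animal 18. In Lexogen the control values ran from 0.469 through a median of 18.95 to 29.1 CPM and the heat values from 13.4 through 33.7 to 70.1 CPM. The log2 fold change there was 1.13 ± 0.34 (SE), with 10 of 12 calves higher, or 11 with plain totals. The low control value was animal 14, with 3 counts, and without that library the log2 fold change was 1.02. Animal 18 was again the highest, at 70.1 CPM from 17.2.

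SLC6A6 encodes TauT, which takes up taurine and beta-alanine. Its Takara levels were 11.6, 17.4 and 30.1 CPM (lowest, median and highest) in control blood and 13.5, 26.7 and 43.95 CPM after heat, and 5 of 13 heat libraries lay above every control library. The log2 fold change was 0.87 ± 0.24 (SE), with 8 of 12 calves higher after heat and differences from -0.43 in animal 3 to 1.98 in animal 18, and with plain totals it was 0.53. In Lexogen the control levels were 10.3, 26.4 and 35.8 CPM and the heat levels 6.87, 50.9 and 85.1 CPM. Here 8 of 13 heat libraries lay above every control library, yet the lowest library of the kit was also a heat library, that of animal 23. The log2 fold change was 1.04 ± 0.30 (SE), with 9 of 12 calves higher.

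AQP9 had the largest log2 fold change of the 7 genes in both kits and the widest scatter between calves. Its Takara levels were 3.67, 6.81 and 12.4 CPM in control blood and 4.23, 14.5 and 61.0 CPM after heat, with a log2 fold change of 2.01 ± 0.41 (SE). In Takara the 12 calves fell into 2 separate sets. Animals 3, 12, 19, 32 and 41 had differences between -0.51 and 0.11, and the other 7 had differences between 1.76 and 4.02, the last in animal 36, which went from 4.67 to 61.0 CPM. In Lexogen the control levels were 2.19, 5.23 and 11.5 CPM and the heat levels 0, 21.1 and 66.7 CPM, with a log2 fold change of 1.83 ± 0.56 (SE) and 8 of 12 calves higher. The library at 0 was the heat library of animal 23, whose control library held 11.5 CPM, and without the heat library of animal 18 the log2 fold change was 1.56. With the animal as a block the value was 1.47 ± 0.40 (SE) in Takara and 1.21 ± 0.78 (SE) in Lexogen.

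NFAT5, the transcription factor of the hypertonic response, differed between the calves in sign. Its Takara levels were 14.1, 18.8 and 36.9 CPM in control blood and 13.3, 25.9 and 38.8 CPM after heat, so the groups shared nearly the whole range and only 3 of 13 heat libraries lay above every control library. The log2 fold change was 0.66 ± 0.24 (SE), with 8 of 12 calves higher and differences from -1.26 in animal 14 to 1.73 in animal 15. It was past the threshold without the block and not with it, at 0.55 ± 0.26 (SE), nor with plain totals, at 0.33, nor without the heat library of animal 18, at 0.56. In Lexogen the control levels were 22.4, 45.2 and 129 CPM and the heat levels 34.6, 61.2 and 119.4 CPM, with a log2 fold change of 0.33 ± 0.25 (SE) that was not past the threshold and 9 of 12 calves higher. Animal 14 had the highest control level in both kits, 36.9 CPM in Takara and 129 CPM in Lexogen, and the lowest difference in both, and without its control library the Lexogen log2 fold change was 0.53.

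WNK1 phosphorylates the kinases STK39 and OXSR1, which in turn set the activity of sodium, potassium and chloride cotransporters. Its Takara levels were 28.2, 31.99 and 51.7 CPM in control blood and 23.9, 33.9 and 56.5 CPM after heat, with 2 of 13 heat libraries above every control library. The log2 fold change was 0.43 ± 0.19 (SE), not past the threshold, and 0.11 with plain totals. In Lexogen the control levels were 68.8, 92.6 and 175 CPM and the heat levels 61.7, 127 and 260 CPM, with a log2 fold change of 0.56 ± 0.17 (SE). There 12 of 12 calves were higher after heat, by 0.06 to 1.39 on the log2 scale, against 8 of 12 in Takara, where the differences ran from -0.65 to 1.28. With plain totals it was 7 of 12 in Takara.

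AKR1B1, aldose reductase, makes sorbitol from glucose. Its Takara levels were 1.75, 7.81 and 14.6 CPM in control blood and 1.89, 4.94 and 12.3 CPM after heat, with a log2 fold change of -0.32 ± 0.26 (SE) that was not past the threshold and a higher level after heat in 4 of 12 calves. The values rested on few reads, from 9 to 170 counts per library. In Lexogen AKR1B1 had no count in 15 of 26 libraries and did not pass the filter on low counts. Animal 19 stood out there with 23.8 CPM before and 22.2 CPM after heat, while in Takara the same calf had 5.02 and 2.78 CPM.

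**Figure D2:**
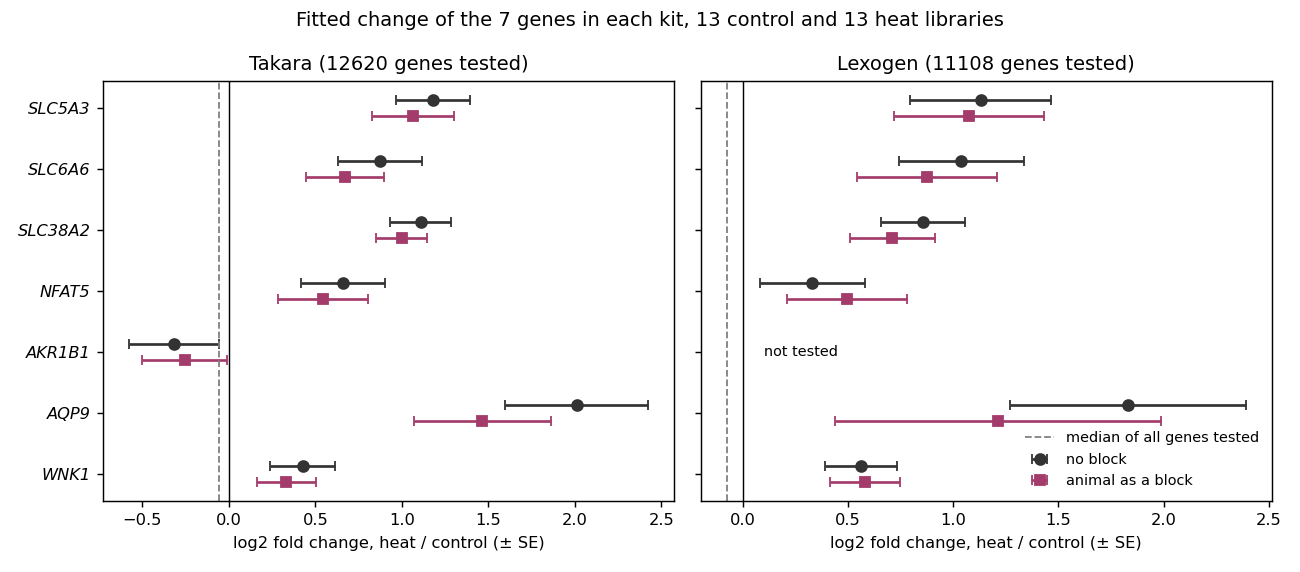
Log2 fold change of heat over control with its SE for the 7 genes in Takara (left) and Lexogen (right), without a block (circles) and with the animal as a block (squares), and the median of all genes tested as a dashed line. AQP9 lies farthest right in both kits, at 2.01 and 1.83 without the block, and AKR1B1 is the 1 gene to the left of 0 in Takara, at -0.32.

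No calf in Takara had fewer than 3 of the 7 genes higher after heat, and animals 18 and 36 had all 7 higher with TMM scaling, or 5 and 6 with plain totals. In Lexogen animal 19 had all 7 higher, or 6 with plain totals, and animals 3 and 14 had 3 each, or 4 and 3 with plain totals. The share of all genes higher in a calf was not counted, and the genes were chosen with these values known, so nothing is read from these counts. Animal 18 had the largest difference in SLC5A3, SLC6A6 and SLC38A2 in Takara and in SLC38A2, NFAT5 and AQP9 in Lexogen.

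The runs of sample numbers were compared to see whether the difference between the times was alike in both sets of calves, a comparison that the choice of genes did not use. SLC5A3, the myo-inositol transporter gene, differed most in Takara. It went from 7.53 ± 1.77 CPM (SD, n = 7) in control to 19.8 ± 8.99 CPM (SD, n = 7) in heat libraries of run 1, and from 10.1 ± 2.03 (SD, n = 6) to 11.9 ± 2.74 CPM (SD, n = 6) in those of run 2. All 6 paired calves of run 1 were higher by 0.97 to 2.74 on the log2 scale, and those of run 2 lay between -0.12 and 1.18. The change in run 2 minus that in run 1 was -1.37 ± 0.34 on the log2 scale (95% confidence interval -2.07 to -0.67, adjusted p = 0.0312, edgeR's quasi-likelihood test over 13767 genes). It was the 1 gene of 7 past the threshold, where 1.76% of all genes tested had such a negative difference and 0.508% a positive one. With the animal as a block the difference was -1.33 and the adjusted p = 0.0596 in edgeR, so the call was lost.

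NFAT5 followed the same order without passing the test. It was higher after heat in 6 of 6 Takara calves of run 1, by 0.42 to 1.73, and in 2 of 6 calves of run 2. The mean level went from 17.9 ± 2.57 to 30.7 ± 7.38 CPM (SD, n = 7 each) in run 1 and from 25.9 ± 8.53 to 22.6 ± 9.49 CPM (SD, n = 6 each) in run 2. The difference between the runs was -1.13 ± 0.45 (95% confidence interval -2.05 to -0.21), with an adjusted p = 0.199 in edgeR. SLC38A2 was higher after heat in all 6 Takara calves of either run, and the difference between the runs was -0.29 ± 0.29 with an adjusted p = 0.689 in edgeR. AQP9 had the opposite sign, at 1.25 ± 0.81 and an adjusted p = 0.467 in edgeR, and was higher in 3 of 6 calves of run 1 and in 6 of 6 of run 2.

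In Lexogen 0 of the 7 genes differed between the runs in this way by edgeR, with 2 at an unadjusted p under 0.05, and 0.0148% and 0.00742% of all genes tested were past the threshold in either direction. The value nearest to it was SLC38A2, at -1.06 ± 0.31 (95% confidence interval -1.69 to -0.43, adjusted p = 0.3). The other of the 2 was NFAT5, at -0.98 ± 0.48 (95% confidence interval -1.96 to -0.01, adjusted p = 0.628 in edgeR). SLC5A3 there was -0.69 ± 0.63, with an interval from -1.99 to 0.60 that holds both no difference and the Takara value. With the animal as a block it was -0.18 ± 0.75, and the control library of 3 counts, that of animal 14, is in run 2.

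**Figure D3:**
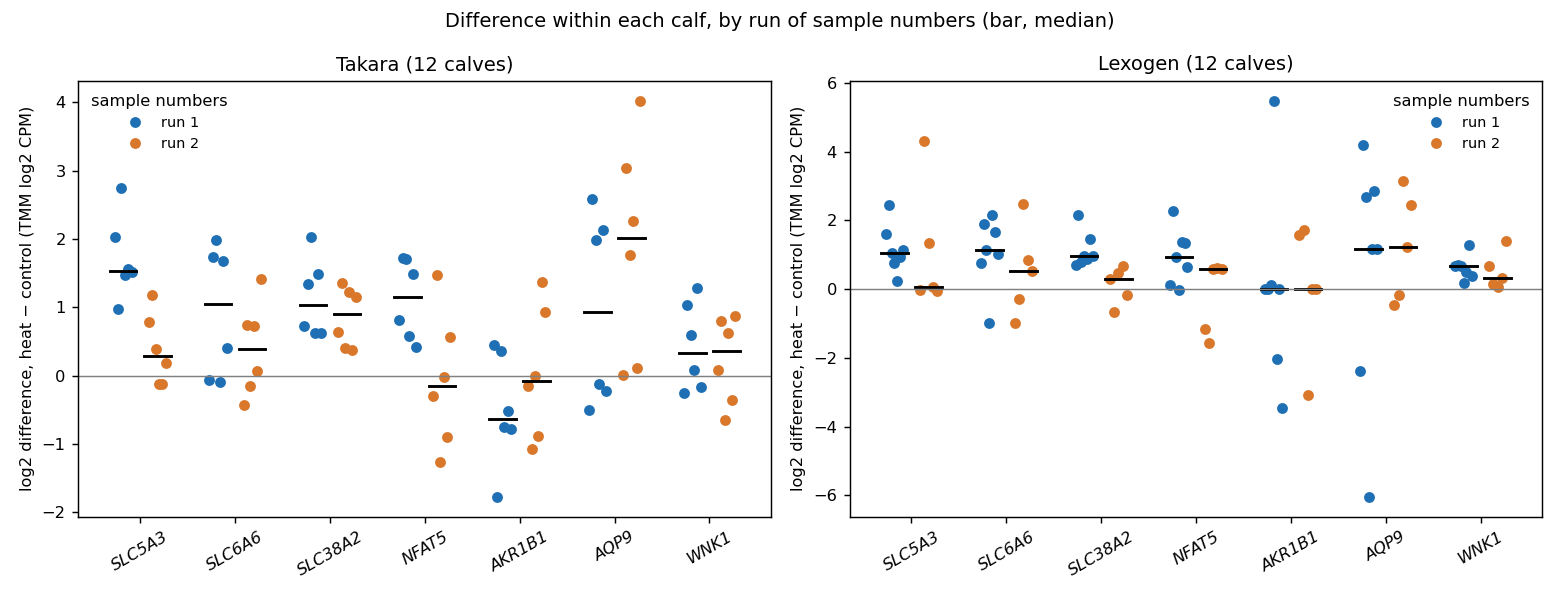
Log2 difference of heat minus control within each of 12 calves for the 7 genes in Takara (left) and Lexogen (right), with calves of sample number run 1 in blue, those of run 2 in orange and bars at the medians. In Takara the SLC5A3 medians are 1.54 in run 1 and 0.29 in run 2, while the SLC38A2 medians are 1.04 and 0.90.

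Control blood alone also differed between the runs in Takara. SLC38A2 was lower in run 2, at 115.5 ± 9.30 CPM (SD, n = 6) against 161 ± 19.4 CPM (SD, n = 7), a log2 difference of -0.35 ± 0.10 (adjusted p = 0.0467, edgeR's quasi-likelihood test), where 3.06% of all genes tested were lower and 5.07% higher. The 2 sets of SLC38A2 control values did not overlap in Takara, since run 2 reached 125 CPM and run 1 began at 133 CPM. How many of all genes were without overlap was not counted, so nothing is read from it. NFAT5 at 0.66 ± 0.20 and SLC5A3 at 0.54 ± 0.19 were higher in run 2, with adjusted p = 0.0551 and adjusted p = 0.0845 in edgeR, and neither was past the threshold. In Lexogen 0 of 6 genes tested were past it by edgeR, where 0% of all genes were in either direction, and 1 had an unadjusted p under 0.05, NFAT5 at 0.79 ± 0.32. The SLC38A2 control values overlapped there, at 148.9 to 342.5 CPM in run 2 and 191.5 to 250.9 CPM in run 1.

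The kits were compared on the 24 RNA samples sequenced with both to see whether they gave the same difference between the times. By edgeR 0 of the 7 genes differed, none with an unadjusted p under 0.05, and 0% of the 13354 genes tested did, with 526 at an unadjusted p under 0.05. Over the calves with both times in both kits 0 of 7 were past the threshold again, and 1 had an unadjusted p under 0.05, WNK1 at -0.51 ± 0.18. The Takara value minus the Lexogen value was -0.17 for SLC5A3 (95% confidence interval -1.06 to 0.71), -0.45 for SLC6A6 (-1.001 to 0.09), 0.15 for SLC38A2 (-0.15 to 0.44) and 0.01 for NFAT5 (-0.52 to 0.53). For AQP9 it was -0.45 (-1.48 to 0.57) and for WNK1 -0.32 (-0.73 to 0.09). The interval of AKR1B1 ran from -3.99 to 3.39. A p that misses the threshold does not show equal differences, and the intervals of SLC5A3, SLC6A6 and AQP9 reach a log2 value of -1 or beyond.

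The differences of single calves were set side by side between the kits as well. Across the 10 calves with both times in both kits, SLC6A6 gave a Pearson r of 0.625 (permutation p = 0.054, adjusted p = 0.0946 over the 7 genes) and a Spearman rho of 0.685 (permutation p = 0.035, adjusted p = 0.0975), and r was 0.483 without animals 18 and 40. For the other 6 genes the largest gap between calves was more than 30% of the range in 1 kit. No pooled r is given for them. That gap set a single calf apart for SLC5A3 (animal 14, Lexogen), SLC38A2 (animal 18, Takara) and AQP9 (animal 36, Takara). For AKR1B1 several Lexogen differences were 0, since neither library of the calf held a count. With 5 calves in either run, the relation could not be followed within a run.

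The level of 6 of the 7 genes in control blood depended on the kit. On the 12 control RNA samples with both kits, WNK1 held 34.6 ± 7.03 CPM in Takara and 100.7 ± 26.95 CPM in Lexogen (SD, n = 12), a log2 difference of -1.91 ± 0.13 (adjusted p = 1.06e-09, edgeR's quasi-likelihood test), and it was lower in Takara in every one of the 12. NFAT5 differed by -1.70 (adjusted p = 6.13e-07 in edgeR) and SLC38A2 by -1.01 (adjusted p = 3.57e-07 in edgeR), both also lower in 12 of 12. SLC5A3 at -1.27 and SLC6A6 at -0.73 were past the threshold with TMM scaling and not with plain totals, which gave -0.88 and -0.35. AKR1B1 went the other way, at 7.81 ± 3.66 CPM in Takara and 3.21 ± 7.44 CPM in Lexogen (SD, n = 12), and was higher in Takara in 10 of the 12. It passed edgeR's test, but 7 of the 12 Lexogen libraries had 0 counts, so no fold is given. AQP9 differed by -0.08 ± 0.36, with an interval from -0.85 to 0.69, and by 0.30 with plain totals. Of all 12386 genes tested, 36.6% were higher in Takara and 27.6% lower, so a difference between the kits was common.

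Blood is a mixture of cells, and in such bulk samples fewer cells of a type and less RNA per cell cannot be told apart. Red cells had been lysed before extraction. Of 12 neutrophil markers, 11 were higher after heat in Takara and 8 in Lexogen, all 12 were detected, and their summed level went from 5103 to 22930 CPM over the control libraries to 6241 to 81830 CPM over the heat libraries of Takara. In Lexogen the sum ran from 1822 to 8193 CPM in control and from 2437 to 35020 CPM in heat libraries, and 10 of 12 calves were higher after heat in each kit. Of 11 T cell markers 5 were lower in Takara and 0 in Lexogen, of 8 B cell markers 1 and 0 were lower, and of 9 monocyte markers 4 and 1 were higher. Of 8 platelet markers, 5 were tested and none passed in either kit, and of 10 erythroid markers 3 were tested and 1 was higher in Takara, while HBA1 and CA1 were at 0 in both kits. With plain totals the summed monocyte markers were higher after heat in 5 of 12 Takara and 7 of 12 Lexogen calves. The summed platelet markers were higher in 2 of 12 Takara and 4 of 12 Lexogen calves, and so were the summed erythroid markers.

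The 7 genes moved with these neutrophil markers to different degrees across the 12 Takara calves. SLC6A6 followed them closely, with a Pearson r of 0.844 (permutation p = 0.00119, adjusted p = 0.00416 over the 7 genes) and a Spearman rho of 0.853 (permutation p = 0.00065, adjusted p = 0.00455). The r of SLC6A6 was 0.876 without animals 3 and 41, the 2 farthest from the median of the markers, and within the runs it was 0.916 (exact permutation p = 0.0806) and 0.974 (exact permutation p = 0.00278), with 6 calves each. WNK1 gave an r of 0.765 (permutation p = 0.00561, adjusted p = 0.00982) and a rho of 0.699 (permutation p = 0.0142, adjusted p = 0.0322), 0.821 without those 2 animals and 0.876 (exact permutation p = 0.0681) and 0.709 (exact permutation p = 0.122) within the runs. With plain totals the r of WNK1 was 0.537 with an adjusted permutation p = 0.168, and that of SLC6A6 was 0.760 with an adjusted permutation p = 0.019. The gene and the markers of a calf carry the same library scaling, which the permutations do not take into account. The r of all other genes with the markers was not tested, so these values have no background.

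No relation of SLC5A3 to the markers was detected, with an r of -0.072 (permutation p = 0.823, adjusted p = 0.896), a rho of -0.014 (permutation p = 0.974, adjusted p = 0.974), an r of -0.060 without the same 2 animals, and 0.197 (exact permutation p = 0.732) and -0.286 (exact permutation p = 0.565) within the runs. Among the calves with SLC5A3 differences above 1.5, the marker sums differed by -0.63 in animal 41, 0.31 in animal 12, 2.81 in animal 40 and 3.28 in animal 18. NFAT5 gave an r of 0.506 (permutation p = 0.0936, adjusted p = 0.131) and a rho of 0.538 (permutation p = 0.0749, adjusted p = 0.105), with 0.496 without the 2 animals, 0.977 (exact permutation p = 0.0111) in run 1 and 0.574 (exact permutation p = 0.235) in run 2. AKR1B1 gave an r of 0.042 (permutation p = 0.896, adjusted p = 0.896) and a rho of 0.035 (permutation p = 0.92, adjusted p = 0.974), -0.047 without the 2 animals, and -0.055 (exact permutation p = 0.929) and 0.085 (exact permutation p = 0.854) within the runs.

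For AQP9 and SLC38A2 the largest gap between calves was more than 30% of the range, so no pooled r is given for them. For SLC38A2 the gap set animal 18 alone apart, at 2.03 against 1.49 in animal 40, the next calf. The 7 calves in which AQP9 was higher by 1.76 or more had marker differences from 0.33 to 4.10. The 5 with AQP9 differences up to 0.11 had marker differences from -0.93 to 1.54. In the set of 7, animal 14 had 0.33 and the others 2.46 or more. In the set of 5, animal 32 had 1.54 and the others 0.44 or less. Both sets are those of Takara and were not kept in Lexogen, as given above. Animals 7, 15, 16, 18, 36 and 40, with marker differences of 2.46 or more, had SLC38A2 differences from 1.16 to 2.03. The other calves, with marker differences up to 1.54, had SLC38A2 differences from 0.38 to 0.73. Among these were animal 41 at 0.62 and animal 3 at 0.64, the 2 calves whose neutrophil markers were lower after heat. With plain totals the SLC38A2 differences of the 2 sets overlapped, from 0.68 to 1.35 in the first and from 0.43 to 0.75 in the other. The part of cell composition in the level of any of the 7 genes was not tested.

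**Figure D4:**
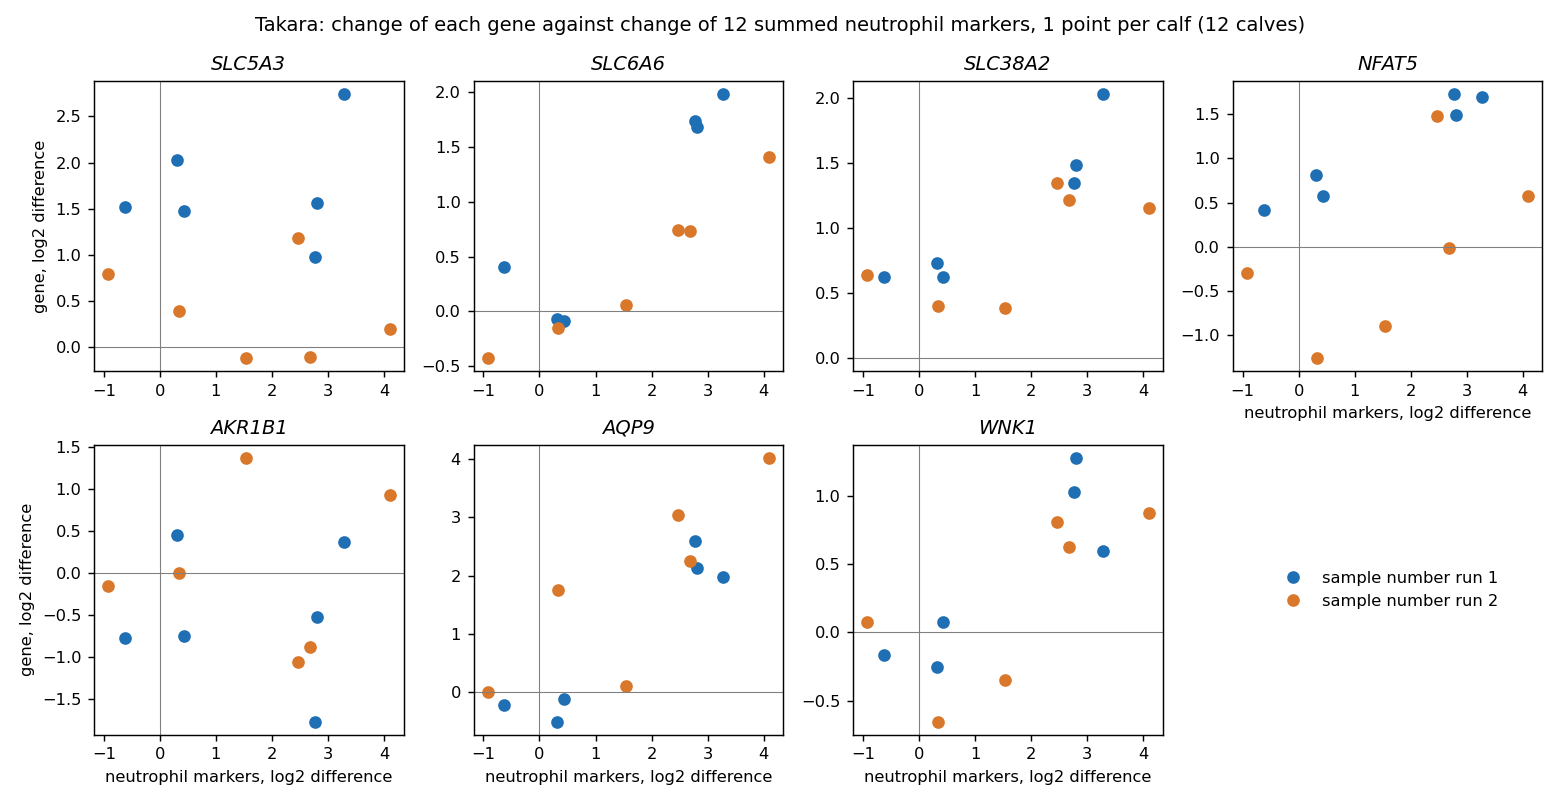
Log2 difference of heat minus control of each gene (y axis) against that of the summed 12 neutrophil markers (x axis) in 12 Takara calves, coloured by run of sample numbers. SLC6A6 climbs with the markers at an r of 0.844, SLC5A3 has an r of -0.072, and the AQP9 points form a lower set of 5 and an upper set of 7 calves.

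The genes with levels most like each of the 7 over the 26 Takara libraries are given as a description, since libraries share depth and cell makeup. SLC5A3 was most like HSPA1A, the inducible HSP70 gene, at a Pearson r of 0.827, followed by the splicing factor gene RBM39 at 0.823 and INPP4A at 0.794, and in Lexogen the r with HSPA1A was 0.609. HSPA1A has a near-identical neighbouring copy, so its counts are uncertain. SLC6A6 was most like PTBP3 at 0.960, MAX at 0.944 and EPS15 at 0.943, and SLC38A2 was most like RSRP1 at 0.956, SECISBP2 at 0.938 and ELOA at 0.937. NFAT5 was most like MINDY2 at 0.933, CREBBP at 0.926 and LOC132346889 at 0.926. AQP9 was most like CITED2 at 0.944 and RNF145 at 0.943, and WNK1 was most like DOCK2 at 0.898, PDZD8 at 0.892 and the p38 kinase gene MAPK14 at 0.890. For AKR1B1 they were POLR1C at 0.862, MCM6 at 0.789 and RCE1 at 0.778. These genes were picked for the highest r in Takara, which by itself favours a lower r elsewhere, and in Lexogen the r measured ran from 0.018 for NFAT5 with LOC132346889 to 0.749 for SLC6A6 with MAX.

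Beyond the 7 genes, 86 other genes of osmolyte handling, ion transport and volume regulation were followed in 7 lists. In Takara 63 were tested, 13 were higher and 11 lower after heat, and their median log2 fold change was -0.01 against -0.05 over all genes. In Lexogen 56 were tested, 3 were higher and 1 lower, and the median was -0.05 against -0.08. The shares past the threshold over all genes were 18.4% higher and 10.5% lower in Takara and 5.09% higher and 0.459% lower in Lexogen. With plain totals 8 of the 63 Takara genes were higher and 13 lower.

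Among 18 genes that move or make osmolytes, 4 rose and 4 fell of 13 tested in Takara, and 0 of 9 tested in Lexogen passed edgeR's test, with 2 at an unadjusted p under 0.05. CDO1, which starts the making of taurine from cysteine, rose in Takara from 1.52 ± 0.66 to 3.39 ± 1.61 CPM (SD, n = 13), a log2 fold change of 1.52 ± 0.31 (adjusted p = 0.00101, edgeR), in 11 of 12 calves. ISYNA1, the enzyme that forms inositol phosphate from glucose phosphate, rose by 1.20 ± 0.41 (adjusted p = 0.0276, edgeR), but not past the threshold with the block, where the adjusted p = 0.0561, with plain totals, where the adjusted p = 0.0763, or without the heat library of animal 18, where the adjusted p = 0.0649 in edgeR. The amino acid transporter gene SLC36A1 rose by 0.92 ± 0.23 (adjusted p = 0.00388, edgeR), or by 0.60 with plain totals. MIOX, which breaks down myo-inositol, fell in 11 of 12 calves, from 8.08 ± 2.65 to 3.98 ± 1.81 CPM (SD, n = 13), with a log2 fold change of -0.81 ± 0.24 (adjusted p = 0.0113, edgeR). IMPA1, which releases inositol from its phosphate, had a log2 fold change of -0.48 ± 0.12 (adjusted p = 0.00339, edgeR). IMPA2, its paralogue with the same reaction, rose by 0.37 ± 0.11 with TMM scaling (adjusted p = 0.0158, edgeR). The CPM of IMPA2 went from 87.72 ± 16.01 to 93.09 ± 15.02 (SD, n = 13), a change smaller than either SD. With plain totals IMPA2 was not past the threshold as higher. GDPD5, which breaks down the osmolyte glycerophosphocholine, had a log2 fold change of -0.49 ± 0.17 (adjusted p = 0.0328, edgeR). The kidney osmolyte transporter genes SLC6A12, SLC6A13 and SLC5A11 did not pass the filter in either kit.

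Of 10 neutral amino acid transporter genes, 9 were tested in each kit. SLC3A2, the heavy chain shared by several of these transporters, rose in Takara by 0.66 ± 0.15 (adjusted p = 0.00267, edgeR), by 0.35 with plain totals (adjusted p = 0.0497), and by 0.48 in run 1 alone, where the call was lost (adjusted p = 0.0809). SLC38A1, the nearest relative of SLC38A2 on the list, fell from 28.8 ± 5.50 to 16.6 ± 7.89 CPM (SD, n = 13), a log2 fold change of -0.63 ± 0.14 (adjusted p = 0.00202, edgeR), and was lower in 11 of the 12 calves, while SLC38A2 was higher in all 12. SLC43A2 was lower in 12 of 12 calves, with a log2 fold change of -0.56 ± 0.14 (adjusted p = 0.00351, edgeR). In Lexogen 0 of 9 passed edgeR's test and 0 had an unadjusted p under 0.05, with SLC38A1 at -0.19 ± 0.25.

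In the WNK and cotransporter list, 2 of 17 genes tested in Takara rose and 0 fell, and in Lexogen 1 of 15 rose and 0 fell. OXSR1, a kinase that WNK1 activates, rose in Takara from 59.4 ± 6.22 to 98.0 ± 29.5 CPM (SD, n = 13), by 1.07 ± 0.19 on the log2 scale (adjusted p = 0.000484, edgeR), in 11 of 12 calves. In Lexogen OXSR1 was at 0.82 ± 0.31 (adjusted p = 0.129, edgeR), not past the threshold, and at 0.62 with the block (adjusted p = 0.441, edgeR). TSC22D3, a glucocorticoid-induced gene (GILZ) of the TSC22 family, rose by 1.08 ± 0.24 (adjusted p = 0.00195, edgeR) in Takara and by 0.84 ± 0.23 (adjusted p = 0.0257, edgeR) in Lexogen, where the adjusted p = 0.182 with the block and 0.0618 without the heat library of animal 18. The SLC12 cotransporter genes of the list were not past the threshold in either kit. Neither were the LRRC8 subunits of the volume-regulated anion channel, with 0 of 4 past it in each kit by edgeR, and 2 in Takara and 0 in Lexogen at an unadjusted p under 0.05. LRRC8D, the most highly counted of them, differed by 0.39 ± 0.16 (adjusted p = 0.0739, edgeR) in Takara and by 0.22 ± 0.21 (adjusted p = 0.665, edgeR) in Lexogen.

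Of 11 other aquaporin genes, 10 are listed in the files and 2, AQP3 and AQP11, were tested in each kit. AQP3 rose in Takara by 0.45 ± 0.17 (adjusted p = 0.0472, edgeR), though not with the block, where the adjusted p = 0.0828, without the heat library of animal 18, or with plain totals, where the adjusted p = 0.419. In Lexogen AQP3 was at -0.12 ± 0.30 (adjusted p = 0.893, edgeR). Among pumps, exchangers and mechanosensitive channels, FXYD5 rose by 0.77 ± 0.20 (adjusted p = 0.00558, edgeR), or 0.42 with plain totals, and ATP1B3, a sodium pump subunit, by 0.36 ± 0.13 (adjusted p = 0.0445, edgeR) in Takara, the latter not with plain totals, where the adjusted p = 0.556, or without the heat library of animal 18, where the adjusted p = 0.059. The stretch-activated channel gene PIEZO1 fell in 12 of 12 calves, from 16.5 ± 3.50 to 9.15 ± 4.92 CPM (SD, n = 13), with a log2 fold change of -0.68 ± 0.17 (adjusted p = 0.00396, edgeR). The bicarbonate cotransporter gene SLC4A7 fell as well, with a log2 fold change of -0.55 ± 0.17 (adjusted p = 0.0182, edgeR), but was at 0.07 in run 1 alone. In Lexogen 0 of 6 genes of this list passed edgeR's test, with 1 at an unadjusted p under 0.05.

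Of 11 tested genes that signal to NFAT5 or are its targets, 3 rose and 3 fell in Takara, and 2 rose and 1 fell in Lexogen. MAPK14 (p38) and MAP3K3, kinases that act upstream of NFAT5, rose in both kits, MAPK14 by 1.05 ± 0.27 (adjusted p = 0.00522, edgeR, and 0.69 with plain totals) in Takara and 1.13 ± 0.27 (adjusted p = 0.00987, edgeR) in Lexogen, and MAP3K3 by 1.30 ± 0.26 (adjusted p = 0.000773, edgeR) and 1.59 ± 0.33 (adjusted p = 0.00278, edgeR). With the block in Lexogen the adjusted p = 0.0328 for MAP3K3 and 0.145 for MAPK14. MAP2K3 rose in 12 of 12 calves in Takara, by 0.48 ± 0.11 (adjusted p = 0.0018, edgeR), and not past the threshold with plain totals, where the adjusted p = 0.0822. LTB, a lymphotoxin gene expressed by lymphocytes, fell in both kits, with a log2 fold change of -0.48 ± 0.17 (adjusted p = 0.0295, edgeR, and 0.0543 without the heat library of animal 18) in Takara and -0.57 ± 0.17 (adjusted p = 0.035, edgeR) in Lexogen, where the block gave an adjusted p = 0.104 and leaving out the heat library of animal 18 one of 0.0566. ATM at -0.46 ± 0.14 (adjusted p = 0.0137, edgeR) and FYN at -0.45 ± 0.16 (adjusted p = 0.0405, edgeR), kinases counted among the activators of NFAT5, fell in Takara, FYN with an adjusted p = 0.07 without the heat library of animal 18 and 0.0531 over all genes with a count. Markers of neutrophils were higher and some of T cells lower in the same libraries, as given above, and their part in these changes was not tested.

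**Figure D5:**
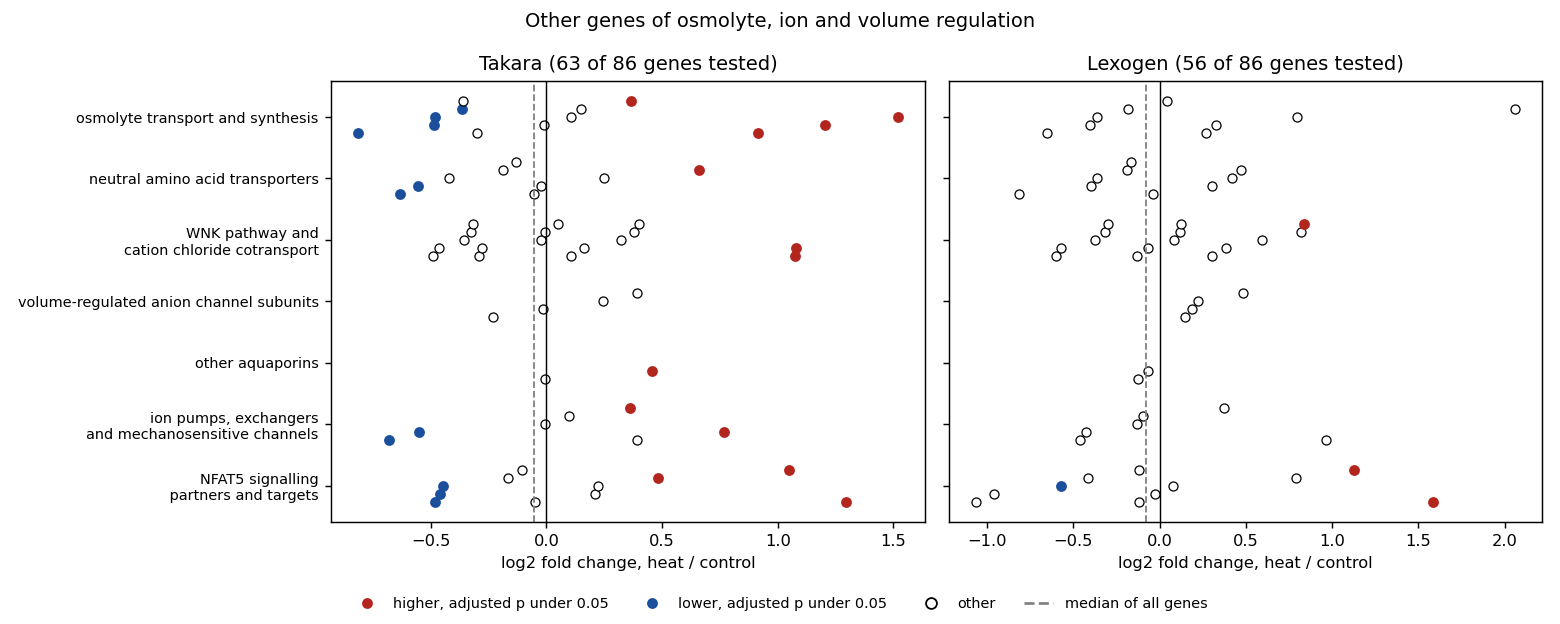
Log2 fold change of heat over control of the tested genes of 7 lists in Takara (63 genes, left) and Lexogen (56 genes, right), filled where edgeR's adjusted p was under 0.05. Takara has 13 filled points to the right and 11 to the left of 0, and Lexogen 3 and 1.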

How the data were processed

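Gene counts of 54 libraries from bovine whole blood, 27 per kit, were used as deposited. The authors trimmed the reads with Trimmomatic 0.39 and aligned and counted them per gene with STAR 2.7.10b, and the gene positions printed come from a RefSeq table of ARS-UCD2.0. The deposited counts were unstranded and stranded reads per gene, and the unstranded column was used. No molecular identifiers were counted, so counts are reads and not molecules. Rows that name no gene (unmapped, multimapped, outside genes or ambiguous) held 32.8% to 57.9% of the reads in Takara and 32.2% to 46.7% in Lexogen and were left out of library sizes. Animal 20 was left out of the comparisons, which used 13 control and 13 heat libraries per kit.

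Counts were fitted with edgeR 4.0.16 (filterByExpr, TMM, quasi-likelihood test) in R 4.3.3, with Benjamini-Hochberg adjustment over all genes and a threshold of 0.05. Differences within a calf were taken from log2 CPM with a prior count of 2. Intervals are at 95%. Correlations used 100000 permutations, or exact ones within runs, and were given where no gap in either measure exceeded 30% of its range. Control and heat libraries of a calf share the animal, so the numbers pair the samples. Their deviations correlated at a median r of 0.232 in Takara, above 0.1 in 11 of 12 calves, and of 0.021 in Lexogen, in 2 of 12. The block fits, DESeq2 1.42.0, plain totals, no filter, sense counts, animal 20 as labelled and each run alone were alternatives, and leaving out Lexogen control library 14 or heat library 18 of either kit was added after seeing the data. Scripts were tested on simulated data. The 7 genes and all lists were chosen with earlier results of these data known. Pathway genes were named by rule, up to 3 per list and direction past the threshold in Takara by largest fold change or, with none past it, the gene of highest CPM, and for each of the 7 genes the 3 with the highest r, of which 1 is not reported here. IMPA2, SLC6A12, SLC6A13, SLC5A11 and AQP11 fall outside this rule and were named after their values were seen. No sequencing batch is given in the labels.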

Additional observations from a re-analysis of the deposited data

Results flagged for a closer look

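SLC5A3 was marked because its change with heat differed between the 2 runs of sample numbers in Takara, by -1.37 ± 0.34 on the log2 scale in run 2 minus run 1, with an adjusted p = 0.0312 in edgeR's quasi-likelihood test and an adjusted p = 0.0596 with the animal as a block. With TMM scaling the run 1 calves were higher in 6 of 6 pairs and the run 2 calves in 4 of 6, among them animal 36, at -0.17 with plain totals. The same difference was -0.69 ± 0.63 in Lexogen and -0.18 ± 0.75 there with the block, neither past the threshold.

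The libraries of animal 20 were outside the comparisons, and the values that lay above every control library of their kit are given without a test. In Takara these were SLC5A3 at 33.1 CPM, SLC38A2 at 269.7 CPM and AQP9 at 20.3 CPM. In Lexogen they were SLC5A3 at 110.0 CPM, above every library of that kit used here, and AQP9 at 20.5 CPM. The other values of animal 20 were within or below the control range, among them SLC6A6 at 28.8 CPM and NFAT5 at 30.99 CPM in Takara and SLC38A2 at 330.0 CPM and WNK1 at 121.4 CPM in Lexogen. Its label and the study's sample list disagree on the time of its blood draw, so these values stand beside no group.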

How the results depend on the processing

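Of the counts of genes past a threshold, 46 stayed within 1.5 times of their value under an alternative and 24 did not, and of the tested values of single genes 402 kept their direction and side of the threshold, 58 lost the call, 3 gained it and 14 changed sign. Of the fold changes of the 7 genes between the times, 127 moved by less than 1 SD of the differences between calves, 1 moved by more and 1 changed sign, and 31 of 100 that were past the threshold were not past it under the alternative. The cause was not tested in any of them. The count of the 7 genes past the threshold in Takara was 5, and 2 in run 2 alone. In Lexogen it was 5, and 0 with the animal as a replicate block, 1 with plain totals, 2 in run 1 alone, 0 in run 2 alone, and 2 to 4 when 1 library was left out (2 without heat library 15 or 18, 4 without control library 14). The pathway genes were 13 higher and 11 lower in Takara, 8 higher with plain totals, 8 higher and 4 lower in run 1 alone and 4 and 4 in run 2 alone. In Lexogen they were 3 higher and 1 lower, 1 and 0 with the block, 5 and 2 with all genes that had a count, 1 and 0 in run 1 alone, 0 and 0 in run 2 alone, and with 1 library left out 0 to 1 lower (0 without heat library 18). The difference of runs in the change with time was past the threshold for 1 gene in Takara and 0 with the block, that of runs in control blood for 1 and for 2, AQP9 joining, with plain totals, and the relation to neutrophil markers for 2 and, with plain totals, 1. The block changed no other call of the 7 genes than those given here and in the report.

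In run 1 alone the log2 fold change of SLC4A7 was 0.0683 in Takara, and in Lexogen it was 0.14, that of SLC3A2 -0.44, of SLC38A1 0.0859 and of ATM 0.0346. In run 2 alone in Lexogen NFAT5 was at -0.15, SLC43A2 at 0.47, AQP3 at 0.27 and SLC38A2, without a change of sign, at 0.11. AQP3 in Lexogen ran from -0.0828 to 0.0317 with 1 library left out, the last without control library 14. NFAT5 was at -0.22 in the comparison of kits over calves with both times in both kits. With the block, the difference of runs in Lexogen was 2.03 for AKR1B1, 0.13 for AQP9 and -0.0407 for WNK1. With plain totals AQP9 in Takara against Lexogen was at 0.30 and the r of AKR1B1 with the neutrophil markers at -0.111. Low counts limit AKR1B1 in both kits and SLC5A3 in the Lexogen control library of animal 14.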
